A study of Mus musculus with 5 samples.

Results

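The proteasome genes of mouse testis were taken as all gene names of the expression table that begin with Psma to Psmg and a digit. The rule found 49 names, spread over 83 transcript rows, among 22401 named genes of the table. For each name the row with the highest mean of both libraries was used, and 48 of the 49 reached a mean signal of 1, the level from which genes were compared. The exception was Psmb11, the thymic catalytic subunit. The names cover 8 alpha and 11 beta subunits of the 20S core particle, 6 ATPases and 11 other subunits of the 19S cap, 7 assembly chaperones, and 5 activators and inhibitors. Psmc3ip also matches the name rule but is no proteasome gene: it encodes HOP2, a partner of the meiotic recombinases. It is counted among the 49, and the counts without it stand in the closing section.

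Testes of 3-month-old males were profiled in 5 libraries, 1 per condition. Polyadenylated RNA came from wild-type mice and from Taf7l-/Y mice, which lack the X-linked gene for a paralogue of the TFIID subunit TAF7; each library was made from equal amounts of 6 RNA extracts. Chromatin labelled wild type was precipitated with a TAF7L antibody, an antibody against RNA polymerase II (Pol II) or, as the control, IgG of both mouse and rabbit. The shared ChIP protocol names testis of 10 mice and chromatin of both genotypes. The signal has no unit in the file header and was treated as being on the RPKM scale. Levels set side by side between genes thus take it as normalised for length, which the header does not state. Each value comes with a deposited standard deviation (SD) whose basis is not given. That SD is no replicate spread, so differences have no replicate check and no p-value, and genes are called at 2-fold. The knockout allele removes Taf7l from the whole animal, and bulk RNA cannot tell fewer cells of a type from less RNA per cell.

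The proteasome is the protease that degrades ubiquitin-tagged proteins. Its core is a barrel of alpha and beta rings in which only some beta subunits cut. ATPases of the cap unfold the substrate and open the alpha ring, other cap subunits bind and remove ubiquitin, and activators such as PA28 and PA200 can take the place of the cap. In testis, 2 proteasome genes have been tied to germ cells. Psma8 encodes alpha4s, a germ-cell copy of the alpha4 subunit encoded by Psma7, and Psme4 encodes PA200, which has been tied to the degradation of acetylated histones in spermatids.

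Most proteasome genes had a higher signal in the knockout library, as did most genes. Of the 48 compared, 43 had a change above 0, 89.6%, against 72.6% of all 12846 genes compared. The change was log2((knockout + 1)/(wild type + 1)), and its median was 0.58 over the 48 genes and 0.40 over all genes. Relative to that general shift the proteasome median was 0.17, with 31 genes above and 17 below the median of all genes. At least 2-fold higher were 5 genes, Psma7, Psma8, Psmb1, Psme1 and Psme2, or 10.4%, against 7.22% of all genes. At least 2-fold lower was 1 gene, Psmf1, or 2.08%, against 7.20% of all genes. When the knockout library was rescaled so that the median of all genes was 0, no proteasome gene was at least 2-fold higher, against 1.00% of all genes, and 3 were lower, Psma6, Psme4 and Psmf1, against 12.6%. The call of Psme4 is that of a short row at the gene's end. The proteasome median was 0.090 after that rescaling. The ranges of signal plus and minus SD did not overlap between the libraries for 38 of the 48 genes, 79.2%, against 66.7% of all genes.

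**Figure D1:**
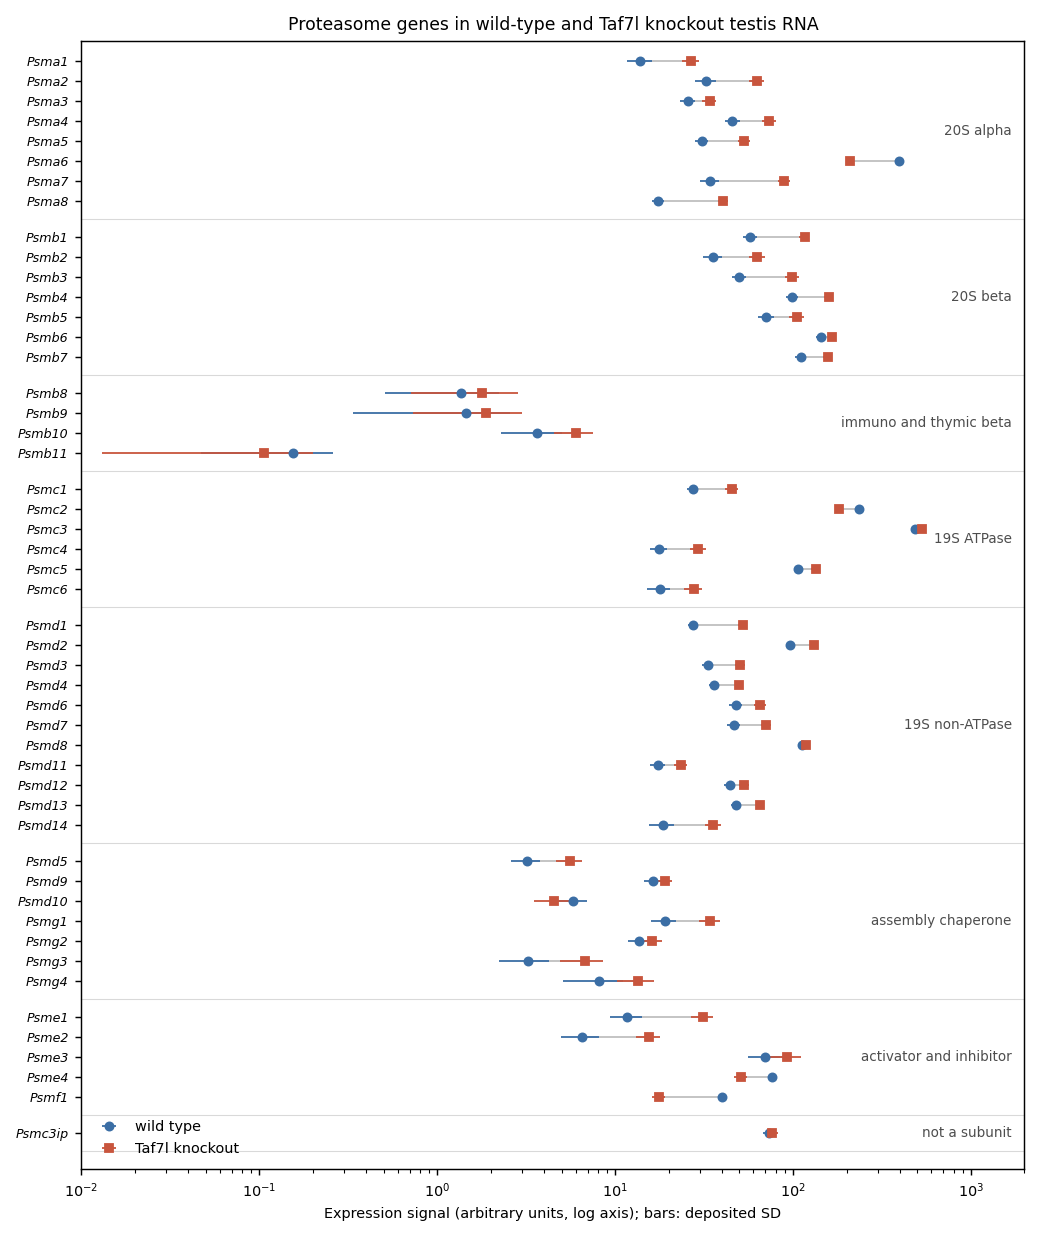
Expression signal of all 49 genes in the wild-type library (circles) and the Taf7l knockout library (squares) on a log axis, with the deposited SD as bars and genes grouped by role. Squares lie to the right of circles for most genes, and Psma6, Psmc2, Psme4, Psmf1, Psmd10 and Psmb11 are the ones with the square on the left.

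The libraries differed in their cell markers. The signal of Taf7l itself was 13.2 in wild-type and 2.04 in knockout testis, and which part of the gene was deleted is not known here. All 7 late spermatid markers, among them the protamine genes, were at least 2-fold lower, against 7.20% of all genes. Their summed signal was 66367 and 11870, or 12.5% and 2.39% of all named signal. Of 6 Sertoli cell markers, 2 were at least 2-fold higher, against 7.22% of all genes. Their summed signal was 629 and 1215, of which Clu had 564 and 1076. That of 6 spermatocyte markers was 3681 and 3189, although 4 of the 6 had a change above 0 and the median change of the 6 was 0.54. Of the 6, Sycp1 was at least 2-fold higher and Pgk2 at least 2-fold lower. The sum over 5 Leydig cell markers was 1894 and 1523, of which Insl3 had 1686 and 1052. Of the 5, 3 had a change above 0, with 2 of them, Cyp11a1 and Cyp17a1, at least 2-fold higher. Star and Insl3 had a change below 0. None of these markers was listed at 0. Their part in the proteasome values was not tested.

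Proteasome genes were expressed well above the typical testis gene. In the wild type 41 of the 48 lay above the median of all genes compared, which was 6.64, and 13 lay in the top 10%. Psmc3 had the highest signal, 485 in wild-type testis and 531 in the knockout, and ranked 124th of 12846 in the wild type. Together the 49 genes made up 0.553% of named signal in wild-type testis and 0.708% in the knockout.

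The alpha subunits form the outer rings of the core and its gate. Psma7 (chromosome 2, 179771080 to 179777107, mm9), the general alpha4 gene, had a signal of 34.2 (SD 4.17) in wild-type testis and 89.3 (SD 7.03) in the knockout. Its change of 1.36 lay at percentile 98.8 of all genes and was the highest of the 48 with a pseudocount of 1. With none, Psme1 was higher, at 1.40 against 1.39. Psma8, the germ-cell alpha4s gene, had 17.5 (SD 1.32) and 40.4 (SD 2.46), a change of 1.16. Both genes were thus higher in the knockout library, with signals that lay apart by more than their SDs. Psma8 stood at 0.514 of the Psma7 signal in the wild type (SD 0.0736) and 0.453 in the knockout (SD 0.0451), so that the ratio differed by less than its SD in the wild type. As a share of the pair, Psma8 made up 33.9% and 31.2%. The ratio depends on how rows are joined. Psma8 has 3 rows of the same span and Psma7 has 1, so that summed rows gave 1.43 and 1.26.

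Psma6, which encodes alpha1, went the other way and stood apart in level. Psma6 (chromosome 12, 56499811 to 56519446, mm9) had 396 (SD 19.1) in wild-type testis and 210.2 (SD 9.80) in the knockout, a change of -0.91. Set against the median of all genes this was -1.31. It was the 161st gene by wild-type signal and made up 66.4% of the alpha signal in wild-type testis and 35.6% in the knockout. The other 6 general alpha genes, which supply the same ring in equal number, lay between 13.8 and 45.7 in wild-type testis and between 26.8 and 89.3 in the knockout. Psma6 exceeded Psma7 by 11.6 times in wild-type testis and 2.35 times in the knockout. Of the remaining alpha genes Psma2 had 32.6 and 62.7, Psma1 13.8 and 26.8, Psma5 30.8 and 53.1, and Psma4 45.7 and 73.6. Psma3 changed least, with 25.7 and 34.0, which is 0.39 on the log2 scale and close to the median of all genes.

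Promoters of Psma7 and Psma6 are shown because these genes had the highest and the lowest change of the alpha group. Each sequence is the RefSeq window in GRCm38.p6 from 250 bases before to 50 bases after an annotated start, read 5′ to 3′ on the gene's strand. Capitals mark matches on either strand to 6 motifs. These were the TATA box TATAAA, the CCAAT box, the core of the antioxidant response element TGACNNNGC, the cAMP response element TGACGTCA, the GC box GGGCGG and the palindromic motif of nuclear respiratory factor 1. Psma6 has 2 annotated starts, and which of them the expression row uses was not established.
Psma7, chr2:180042415-180042714, minus strand: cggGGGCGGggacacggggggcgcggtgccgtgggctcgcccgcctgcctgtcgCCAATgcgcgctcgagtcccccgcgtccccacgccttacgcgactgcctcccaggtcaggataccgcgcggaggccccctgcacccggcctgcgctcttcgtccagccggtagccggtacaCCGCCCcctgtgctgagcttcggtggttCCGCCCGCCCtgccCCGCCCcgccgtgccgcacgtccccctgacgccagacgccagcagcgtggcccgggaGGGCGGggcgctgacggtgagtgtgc
Psma6, upstream start, chr12:55383972-55384271, plus strand: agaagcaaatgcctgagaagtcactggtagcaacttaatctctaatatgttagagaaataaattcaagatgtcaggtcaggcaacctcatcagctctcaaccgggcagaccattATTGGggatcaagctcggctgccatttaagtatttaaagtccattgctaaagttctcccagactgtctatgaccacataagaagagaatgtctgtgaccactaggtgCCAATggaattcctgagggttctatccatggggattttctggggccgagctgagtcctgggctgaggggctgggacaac
Psma6, downstream start, chr12:55398575-55398874, plus strand: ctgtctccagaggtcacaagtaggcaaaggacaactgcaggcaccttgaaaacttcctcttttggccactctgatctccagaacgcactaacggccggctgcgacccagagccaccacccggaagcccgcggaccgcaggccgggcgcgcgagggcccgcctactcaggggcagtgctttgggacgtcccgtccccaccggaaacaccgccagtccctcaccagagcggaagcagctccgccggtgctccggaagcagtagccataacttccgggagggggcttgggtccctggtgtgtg
The Psma7 window had a GC content of 77.0%, the highest of the 44 windows matched, with 6 GC boxes, 2 of which overlap, and 1 CCAAT. The upstream Psma6 window had 46.7% GC and 2 CCAAT matches, and the downstream one 65.0% GC and no match to the 6 motifs. At these genes TAF7L had a promoter score of 0 and Pol II one of 384 at Psma7, against 94.5 and 1260 at Psma6, the highest Pol II promoter score of all members. Psma8 had 63.6 and 516.

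**Figure D2:**
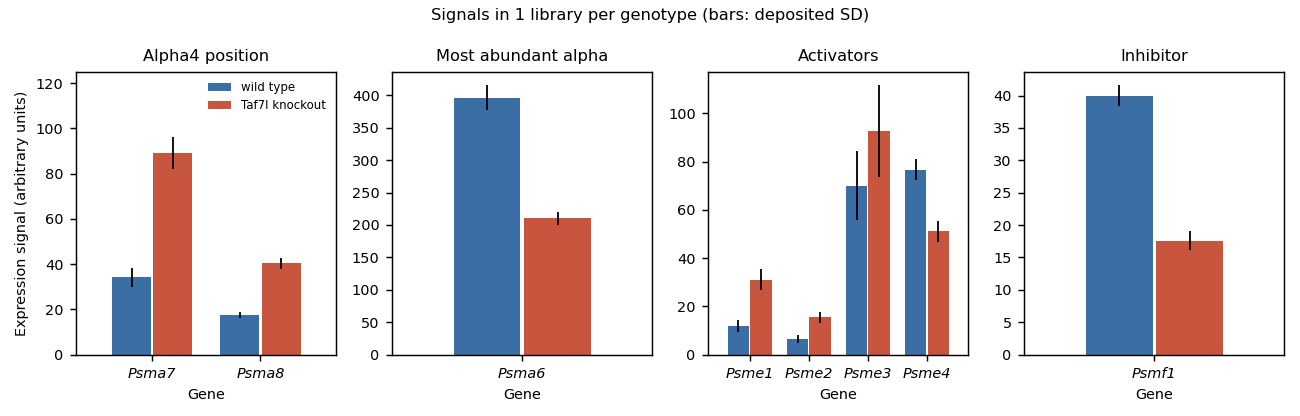
Signals of the alpha4 pair Psma7 and Psma8, of Psma6, of the activator genes Psme1 to Psme4 and of the inhibitor gene Psmf1, in linear units with the deposited SD; blue is wild type and red is Taf7l knockout. Psma7, Psma8, Psme1 and Psme2 are higher in the knockout library, and Psma6, Psme4 and Psmf1 are lower.

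The standard beta subunits, which include the cutting ones, all had a higher signal in the knockout library, as did 72.6% of all genes. Their 7 changes ran from 0.21 to 1.00 with a median of 0.68, and 6 of 7 lay above the median of all genes. With the knockout library rescaled, the median was 0.19, Psmb7 stood at 0.013 and Psmb6 at -0.28. Psmb5, which carries the chymotrypsin-like site, had 70.9 (SD 7.25) in wild-type testis and 105 (SD 9.78) in the knockout. Psmb7, the trypsin-like site, had 110.4 and 157. Psmb6, the caspase-like site, had the highest signal and the smallest change, with 144 and 166. Psmb1 was the member past 2-fold, with 57.4 and 116, and Psmb3 lay just under it at 0.98, with 49.98 and 99.2. Psmb4 had 98.7 and 159, and Psmb2 35.5 and 63.0. The highest and lowest beta genes differed by 4.04 times in wild-type testis and 2.64 times in the knockout, against 28.6 and 7.85 among the alpha genes. Without Psma6 the alpha ratios were 3.31 and 3.33.

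Immune beta subunits, which replace the standard cutting subunits after interferon, were low in both libraries. Psmb8 had 1.36 (SD 0.858) and 1.78 (SD 1.06), and Psmb9 1.45 (SD 1.11) and 1.87 (SD 1.14). Psmb10 had 3.65 (SD 1.37) and 6.04 (SD 1.496). For all 3 the ranges of signal plus and minus SD overlapped between the libraries. Psmb8 was 1.89% of the sum of Psmb5 and Psmb8 in wild-type testis and 1.66% in the knockout. Psmb9 was 1.00% and 1.11% of its pair with Psmb6, and Psmb10 3.203% and 3.71% of its pair with Psmb7. Psmb11 had 0.154 and 0.107. Of 10 leukocyte markers, 9 reached a mean of 1, and their summed signal was 71.6 and 127.9. At least 2-fold higher were 3 of the 9, C1qa, C1qc and Lyz2, against 7.22% of all genes. Of the 9, 7 had a change above 0 and 2 a change below 0. These 2 were H2-Aa, with 5.33 and 3.90, and Cd74, with 10.1 and 8.17. The marker below the mean was Ptprc, at 0.051 and 0.163. Of 5 genes of interferon-induced antigen processing, 3 reached the mean and had a summed signal of 42.0 and 72.2. Their part in the immune subunit values was not tested.

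The ATPases of the 19S cap form 1 ring with 1 copy of each, yet their signals were unequal. Psmc3 had 485 (SD 11.0) and 531 (SD 14.5), a change of 0.13. Psmc2 had 235 (SD 8.08) in wild-type testis and 182 (SD 7.05) in the knockout, a change of -0.37, the one negative value of the 6. Psmc5 had 107 and 134. The other 3 were lower in level: Psmc1 had 27.3 and 45.3, Psmc4 17.7 and 29.4, and Psmc6 17.8 and 27.7. Psmc2 and Psmc3 together carried 80.9% of the ATPase signal in wild-type testis and 75.1% in the knockout. No ATPase gene was past 2-fold, where 14.4% of all genes were past it either way. The group median was 0.47, or -0.013 after rescaling.

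Cap subunits without ATPase activity stayed within 2-fold, as did most genes, of which 14.4% were past it either way. All 11 had a change above 0, as did 72.6% of all genes, with a range from 0.08 to 0.91 and a median of 0.45. After rescaling the median was -0.038, and Psmd2, Psmd4, Psmd6, Psmd8, Psmd11, Psmd12 and Psmd13 were below 0. Psmd14, the deubiquitinase of the cap, had 18.5 (SD 2.91) and 35.7 (SD 3.48). Psmd1, a large scaffold subunit, had 27.4 and 52.1, and its relative Psmd2 96.5 and 131. Psmd4, a ubiquitin receptor, had 35.8 (SD 1.91) and 49.99 (SD 1.998). Psmd7, the partner of Psmd14, had 46.6 and 70.5, and Psmd3 33.2 and 50.7. Psmd6, Psmd11, Psmd12 and Psmd13, further lid subunits, had changes of 0.45, 0.40, 0.26 and 0.44. Psmd8 had the highest wild-type signal of the group and changed least, with 112 and 119, so that its ranges of signal plus and minus SD overlapped between the libraries.

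Assembly chaperones were the lowest group apart from the immune subunits. Their wild-type signals ran from 3.18 to 19.1. None of the 7 was past 2-fold, where 14.4% of all genes were past it either way. Psmg1 and Psmg2, whose products act as a pair in building the alpha ring, had 19.1 and 34.3, and 13.7 and 16.2. Psmg3 had 3.23 and 6.76, and its change of 0.87 became 1.04 with a pseudocount of 0.1, past 2-fold. Psmg4, the partner of Psmg3, had 8.12 and 13.4. Of the chaperones of the cap, Psmd5 had 3.18 and 5.57 and Psmd9 16.3 and 19.1. Psmd10, which encodes gankyrin and is the one X-linked gene of the 49 (chromosome X, 137482963 to 137491250, mm9), had 5.79 (SD 1.14) and 4.53 (SD 1.02), with overlapping ranges.

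**Figure D3:**
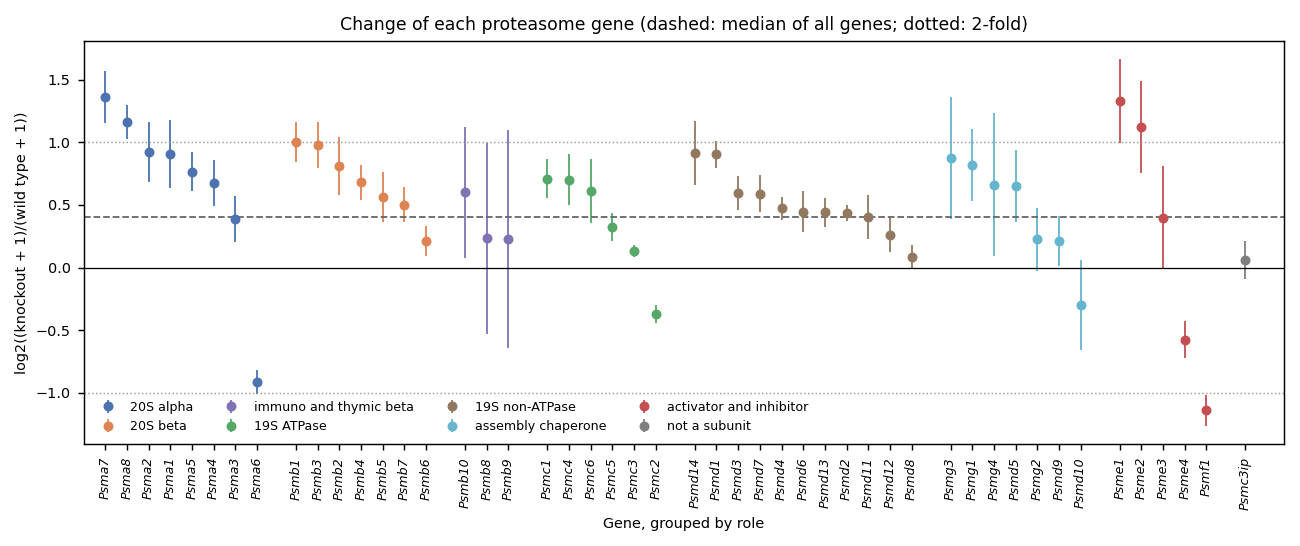
Change of the 48 compared genes as log2((knockout + 1)/(wild type + 1)), ordered within each role group, with bars for the deposited SDs carried over to the change. The dashed line is the median of all genes, 0.40, and the dotted lines mark 2-fold; Psma6, Psmc2, Psmd10, Psme4 and Psmf1 lie below 0.

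Activators and the inhibitor differed in direction, with changes from -1.14 to 1.33. Psme1 and Psme2 encode the PA28 alpha and beta chains, which form 1 ring and are neighbours on chromosome 14. Psme1 (56197330 to 56200364, mm9) had 11.7 (SD 2.39) in wild-type testis and 31.0 (SD 4.30) in the knockout, a change of 1.33. Psme2 (56206276 to 56209858) had 6.56 (SD 1.59) and 15.4 (SD 2.36), a change of 1.12. Both were past 2-fold higher, and their ratio was 1.79 (SD 0.568) and 2.01 (SD 0.415). Psme3, the nuclear PA28 gamma gene, had 70.1 (SD 14.4) and 92.7 (SD 18.98) in a row of only 964 bases, and 34.6 and 36.9 in the row that spans the gene.

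Psme4, the PA200 gene, had a lower signal in the knockout library, within 2-fold. The row with the highest mean (chromosome 11, 30773537 to 30780361, mm9) had 76.6 (SD 4.42) in wild-type testis and 51.1 (SD 4.39) in the knockout, a change of -0.58. That row covers 6825 bases at the gene's end. The row over the whole gene (30671774 to 30780361) had 51.7 (SD 1.72) and 40.6 (SD 2.04), a change of -0.34. Relative to the median of all genes the first row stood at -0.98, and after rescaling it was past 2-fold lower, at -1.06. The row over the whole gene, with the smaller change, was not rescaled, so that this call holds for the first row only. By the first row, Psme4 exceeded Psme1 by 6.53 times in wild-type testis and 1.65 times in the knockout. The row over the whole gene is lower in both libraries and would give smaller ratios. Psma8 and Psme4, both tied to germ cells, thus had changes of opposite sign, also after rescaling, where Psma8 stood at 0.68.

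Psmf1, which encodes the proteasome regulator PI31, was the member that fell past 2-fold. Its row (chromosome 2, 151541797 to 151567029, mm9) had 40.0 (SD 1.60) in wild-type testis and 17.6 (SD 1.43) in the knockout, a change of -1.14, at percentile 5.72 of all genes. Its 3 rows had changes from -1.18 to -1.01. The promoters of Psmf1 and Psme4 are shown beside those above because both genes were lower in the knockout library.
Psmf1, chr2:151741261-151741560, minus strand: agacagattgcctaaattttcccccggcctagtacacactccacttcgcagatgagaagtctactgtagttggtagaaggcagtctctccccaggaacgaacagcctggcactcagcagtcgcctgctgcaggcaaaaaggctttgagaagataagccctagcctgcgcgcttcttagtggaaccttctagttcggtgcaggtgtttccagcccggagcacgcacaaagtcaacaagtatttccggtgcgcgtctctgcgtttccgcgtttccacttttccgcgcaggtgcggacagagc
Psme4, chr11:30771525-30771824, plus strand: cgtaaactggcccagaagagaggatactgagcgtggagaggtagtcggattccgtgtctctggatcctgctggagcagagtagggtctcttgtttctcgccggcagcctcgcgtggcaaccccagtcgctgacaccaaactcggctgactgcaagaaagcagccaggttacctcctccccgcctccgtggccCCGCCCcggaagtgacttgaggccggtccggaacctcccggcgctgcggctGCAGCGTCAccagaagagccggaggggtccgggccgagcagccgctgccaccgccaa
The Psmf1 window, with 54.7% GC, had none of the 6 motifs. The Psme4 window, with 65.3% GC, had 1 GC box and 1 match to TGACNNNGC on the opposite strand, starting 7 bases before the start.

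The motif letters were counted in all member promoters that matched. Windows were found for 41 of the 49 genes, 44 windows in all. GC boxes stood in 23 of 41 genes (24 of the 44 windows, 54.5%) against 35.7% of all 32851 windows of the table. Those windows were not limited to the 12846 genes compared for RNA, unlike the shares of all genes elsewhere. The antioxidant response core stood in 6 of 41, Psmb5, Psmb6, Psmc6, Psmd9, Psmd12 and Psme4, or 13.6% of windows against 12.4% of all. CCAAT stood in 34.1% of member windows and 37.4% of all, and TATAAA in 9.09% and 13.6%. The nuclear respiratory factor 1 motif stood in 2 genes, Psma2 and Psmg1, or 4.55% of windows against 0.971% of all. TGACGTCA was found in none, against 1.79% of all. The median GC content was 58.2% in member windows and 52.7% in all. TGACNNNGC and TGACGTCA begin with the same letters, and the palindromes were counted once.

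Most proteasome genes carried TAF7L at the promoter in wild-type chromatin by the authors' assignment. The row used had a TAF7L promoter score above 0 in 35 of 48 genes, 72.9% (95% Wilson interval 59.0 to 83.4, counting over genes only), against 47.6% of all genes compared. Pol II had a promoter score in 45 of 48, 93.8% (83.2 to 97.9), against 76.4%. Among genes with Pol II, 35 of 45 had TAF7L, 77.8% (63.7 to 87.5), against 62.0% of all such genes. The scores have no stated definition, and there is no IgG column to set them against. Where present, the member scores had a median of 70.7 for TAF7L and 486 for Pol II, against 71.6 and 366 over all genes.

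The highest TAF7L promoter scores were 142 at Psmd8, 113 at Psmg2 and 110 at Psma2. The Pol II scores there were 796, 653 and 508. Without a TAF7L promoter score in the row used were Psma7, Psmb3, Psmb4, Psmb8, Psmb9, Psmb10, Psmc4, Psmd6, Psmd10, Psmg4, Psme1, Psme2 and Psme4. Of these 13, Psmb8, Psmb10 and Psme4 also lacked a Pol II promoter score. For Psme4 the short row was used, and the row over the whole gene had 36 for TAF7L and 1180 for Pol II. By role, TAF7L had a promoter score at 7 of 8 alpha, 5 of 7 standard beta, 5 of 6 ATPase and 10 of 11 other cap genes. It had one at 5 of 7 assembly chaperones, 2 of 5 activator and inhibitor genes and 0 of the 3 immune beta genes compared. In the proximal class TAF7L had a score at 10 of 48, against 28.0% of all genes, and in the distal class at 32 of 48, against 49.7%. Pol II had a proximal score at 23 of 48, against 56.0%, and a distal one at 43 of 48, against 73.4%.

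**Figure D4:**
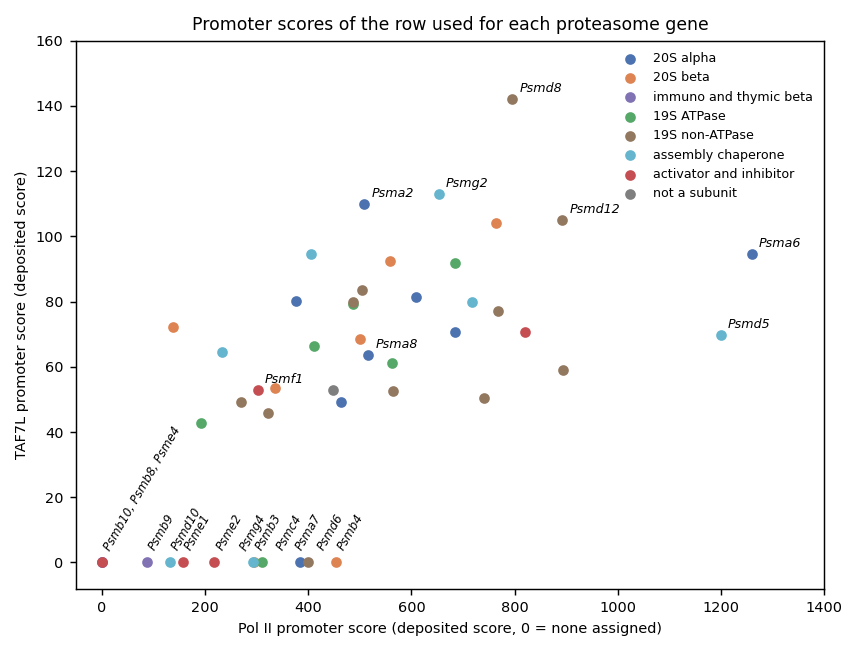
TAF7L promoter score against Pol II promoter score of the row used for each of the 48 compared genes, coloured by role; both are the authors' scores, and 0 means none assigned. Genes along the bottom have no TAF7L promoter score, Psmd8 is highest for TAF7L at 142 and Psma6 for Pol II at 1260.

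The 35 genes with a TAF7L promoter score had a median change of 0.50, with 2 at least 2-fold higher (5.71%) and 1 lower (2.86%). The 13 without had a median of 0.66, with 3 higher and none lower. Over all genes the medians were 0.43 with and 0.37 without a score. Of all genes with a score, 5.20% were at least 2-fold higher and 2.91% lower, close to the shares of the 35. Of all genes without one, 9.06% were higher and 11.1% lower. Across the 48 genes Spearman's rho between TAF7L promoter score and change was -0.17, and that between TAF7L and Pol II promoter scores 0.69, against 0.06 and 0.81 over all genes. Wild-type signal and Pol II promoter score had a rho of 0.35 over the members and 0.24 over all genes. These are descriptions over genes of the same libraries.

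Some member promoters share their scores with a neighbour, and many member promoter scores also stand as a proximal or distal score of a nearby gene. The TAF7L promoter score of 63.6 at Psma8 equals the distal score of Ss18, and that of 142 at Psmd8 the distal score of Ggn. The same score can thus be counted for several genes. Both promoter scores were equal for Psma2 and Mrpl32, Psma4 and AY074887, Psmc2 and Dnajc2, Psmc5 and Ftsj3, Psmd13 and Sirt3, and Psmg2 and Cep76. The RNA values of some of these pairs follow. Psma2 had 32.6 and 62.7, while Mrpl32, a mitochondrial ribosomal protein gene, had 12.3 and 13.3. Psmc2 had 235 and 182, while the chaperone gene Dnajc2 had 40.7 and 38.8. Psmc5 had 107 and 134, and Ftsj3 18.2 and 33.4. Psmd13 had 48.1 and 65.6, and Sirt3, a mitochondrial deacetylase gene, 14.1 and 18.6.

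Other genes of the pathway were taken from a list of 32, of which 31 had a row and all of these reached the mean of 1. At least 2-fold higher was 1 gene, against 7.22% of all genes, and 3 were lower, against 7.20%. The list median was 0.44, close to the 0.40 of all genes. The gene that rose was Ubqln2, a ubiquilin that carries ubiquitinated proteins to the proteasome, from 5.12 to 11.6. Among those that fell, its relative Ubqlnl went from 116 to 20.9, and Ddi1, a shuttle with a retroviral-type protease fold, from 124 to 47.6. After rescaling Ubqln2 was within 2-fold, and 5 genes were lower.

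The pathway genes named next were within 2-fold with the pseudocount of 1, as were most genes, of which 14.4% were past it either way. Pomp, the maturation factor of the core, had 55.6 and 100.5. Adrm1, a ubiquitin receptor of the cap, had 56.5 and 66.4, and Shfm1, a small cap subunit, 216 and 249. The deubiquitinases Usp14 and Uchl5 had 3.58 and 6.88, and 12.0 and 14.2. Nfe2l1, the transcription factor that raises proteasome genes when proteasome activity is short, had 4.54 (SD 0.458) and 9.52 (SD 0.647), a change of 0.93. Its protease Ddi2 had 2.81 and 5.85, a change of 0.85. Without the pseudocount both Nfe2l1 and Ddi2 would be past 2-fold higher. The polyubiquitin gene Ubb was the most abundant of the list, with 3148 and 3553.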

How the data were processed

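RNA signals and ChIP scores of 5 testis libraries were used as the authors deposited them, in 2 tables. The expression table holds a signal per transcript and its SD for each genotype, per the file headers, with no unit named. The authors also deposited a log2 value of wild type over knockout. Their ratio of SD to mean is deposited too. The binding table holds the authors' score for TAF7L and Pol II in 3 position classes. The submitters' processing notes name Bowtie, TopHat, Cufflinks and mm9. No version or peak caller is stated there. The RNA libraries held 100 to 200 M reads, per the labels; no depth is given for ChIP, and intervals cover counting over genes only.

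Of 55350 rows, 47044 had a name found in RefSeq or Ensembl name tables; the row with the highest mean per name was used, and binding scores were joined by transcript identifier. Changes on the log2(signal + 1) scale, which understates those of low genes, were called at 2-fold where the mean reached 1. Strand is not stated, so overlapping genes and near-identical copies cannot be separated; Psma3, Psma4, Psma5, Psmb5, Psmd1, Psmd7, Psme1 and Psmc3ip overlap other rows. No test was possible with 1 library per group. The members and lists were chosen with earlier results of these data known. Genes were named by a rule: Psma8, Psma7 and Psme4 in full, the most abundant member and the extreme changes of each role group, members past 2-fold, the 3 highest TAF7L promoter scores and members with none, and pathway genes past 2-fold or most abundant. Other members and pathway genes were named by role, after their values were seen. Some pathway genes are counted but not reported here by name. Promoter sequences come from RefSeq tables of GRCm38.p6. Functions were tested on simulated data. Alternatives were other pseudocounts, minimums, thresholds, row choices, the authors' log2 ratio and rescaling; those on the longest row and on leaving out Psmc3ip were added after the data were seen. Calculations used Python 3.11.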

Additional observations from a re-analysis of the deposited data

How the results depend on the processing

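With the knockout signals rescaled so that all genes had a median of 0, there were 0 members at least 2-fold higher and 3 lower, the member median was 0.090, and changes were 0.87 for Psma7, 0.68 for Psma8 and -1.06 for Psme4. A 1.5-fold threshold gave 24 higher and 2 lower members, against 35.3% and 13.0% of all genes. Summed rows gave a ratio of Psma8 to Psma7 of 1.43 in wild-type testis and 1.26 in the knockout, since Psma8 has 3 rows and Psma7 has 1. Pseudocounts of 0.1 and 0 and the authors' deposited log2 ratio each gave 6 higher and 1 lower members, the sixth being Psmg3. Over all genes 16.3%, 17.9% and 18.4% were higher under these settings, so that the members' share, above that of all genes in the report, lay below it here. With a mean of at least 5, no minimum, summed rows, the longest row or without Psmc3ip, 5 members were higher and 1 lower. Over all genes 4.52% to 8.89% were higher and 4.46% to 10.0% lower under these settings. The members compared numbered 43 with a mean of at least 5 and 49 with no minimum. The longest row gave Psme4 a change of -0.34, and that row was not rescaled. TAF7L promoter scores stood at 31 to 36 members over the alternatives tried, where 36.8% to 54.7% of all genes had one. Pol II scores stood at 44 to 46 members, against 75.0% to 85.8% of all genes. With the highest score of any row, TAF7L stood at 36 of 48 members, 75%, against 54.7% of all genes. Without Psmc3ip the TAF7L and Pol II counts were 34 and 44 of 47, against 47.6% and 76.4%. No called change turned its sign under any alternative tried. No paired analysis was possible because each group is 1 library, and for the same reason no replicate could be left out. Signals near the mean of 1, as at Psmb8 and Psmb9, have SDs of a size with the signal.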
